A study of Mus musculus with 6 samples.

Results

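The genes described here are 9 secreted or membrane-anchored proteins of innate defence: lipocalin-2 (Lcn2), complement C3 (C3), complement factor B (Cfb), secretory leukocyte peptidase inhibitor (Slpi), serum amyloid A3 (Saa3), pentraxin 3 (Ptx3), decay-accelerating factor (Cd55), the membrane-attack-complex inhibitor Cd59a and haptoglobin (Hp). They were taken by gene symbol, 9 of 49315 gene rows. Of the 9, 8 had enough reads to be tested and Hp did not. RNA sequencing read counts were available for 6 libraries of immortalized mouse keratinocytes from skin. The 3A group (3 libraries) is the line MK-546-ha3A (MK-/-:ha3), which lacks mouse α3 integrin and carries human α3 integrin put back into it. The Control group (3 libraries) is the line MK-546 (MK-/-), which lacks α3 integrin. Both lines received no treatment and shared a collagen coat on 10 cm dishes, low-calcium medium, 33 °C, 8% CO2 and a harvest at an estimated 50 to 80% confluence. Each group is a single cell line. Nothing in the labels says that the 3 libraries came from separate cultures, so p-values measure the spread between these libraries, which may be technical.

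Lipocalin-2 binds the siderophores with which bacteria capture iron. Together with serum amyloid A, haptoglobin and pentraxins it belongs to the proteins that epithelia and liver make in the acute-phase response, which is driven by interleukin-1, interleukin-6, interleukin-17 and tumour necrosis factor through NF-kappaB, STAT3 and the C/EBP factors. C3 is the protein on which the complement pathways meet, factor B forms with it the convertase of the alternative pathway, and Cd55 and Cd59a protect a cell's own membrane from that convertase and from the membrane attack complex. Keratinocytes make several of these proteins themselves, and integrin α3β1 is among their receptors for laminin-332 in the basement membrane.

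The 250 bases upstream of the start sites are shown for Lcn2, the gene that differed most clearly, and for C3, a choice made after the values were seen. Both come from RefSeq (GRCm38.p6), are on the minus strand and are written 5′ to 3′ toward the gene, at chr2:32387740-32387989 for Lcn2 and chr17:57228137-57228386 for C3. The RefSeq start of Lcn2 lies inside the longer GENCODE span given for the gene. Capitals mark matches to the C/EBP motif TTNNGNAA on either strand.
Lcn2: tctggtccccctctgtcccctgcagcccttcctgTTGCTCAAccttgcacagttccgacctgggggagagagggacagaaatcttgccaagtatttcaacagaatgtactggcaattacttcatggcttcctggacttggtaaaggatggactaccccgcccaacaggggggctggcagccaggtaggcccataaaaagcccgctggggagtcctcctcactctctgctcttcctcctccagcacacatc
C3: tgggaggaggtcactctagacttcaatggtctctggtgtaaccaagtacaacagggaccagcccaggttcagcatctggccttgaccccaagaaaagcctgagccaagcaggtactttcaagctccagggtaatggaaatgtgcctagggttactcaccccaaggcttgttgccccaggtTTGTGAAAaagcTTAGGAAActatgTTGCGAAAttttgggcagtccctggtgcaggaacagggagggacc
RefSeq windows were found for 7 of the 9 genes. The C/EBP motif occurred in 5 of the 7 windows, those of Lcn2, C3, Slpi, Saa3 and Ptx3, against 36.8% of 32851 windows of the same length. The Lcn2 window held 1 match, on the opposite strand, 216 to 209 bases before the start. The C3 window held 4 matches at 3 places, 70 to 63, 58 to 51 and 45 to 38 bases before the start, the last on both strands. In the Saa3 window the C/EBP matches lay 216 to 209, 191 to 184, 129 to 122 and 99 to 92 bases before the start. Those of Slpi lay 241 to 234, 223 to 216 and 64 to 57 bases before it. The NF-kappaB motif, the STAT motif TTCNNNGAA and the AP-1 motif TGANTCA had no match in the 7 windows, against 7.25%, 7.02% and 6.75% of all windows. The interferon element matched in 2 windows, those of Saa3 and Cd59a, against 2.98% of all windows, and in Saa3 it overlapped a C/EBP match. These matches are a description of letters in the windows.

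Total counts ranged from 34177002 to 36245240 in the 3A libraries and from 25634204 to 30919348 in the Control libraries. Counts of mouse Itga3, the gene lost in these lines, were 2807, 2633 and 2064 in 3A, against 1007, 1220 and 1062 in Control. It was therefore higher in 3A, with reads left in Control, and whether reads of the human gene were counted on the mouse gene is not given in the sources used here. All 12 keratinocyte markers were detected, with sums from 8897 to 11298 CPM in 3A and from 11609 to 14092 CPM in Control. CPM here are counts-per-million values after scaling by the TMM method. Control 1 stood apart: the Pearson r of its log2 CPM over genes was 0.957 and 0.953 with the other Control libraries, against 0.988 between those, and 0.946 to 0.955 with the 3A libraries. The share of mitochondrial mRNA was 1.58%, 1.23% and 1.30% in 3A, against 1.16%, 4.16% and 4.69% in Control, so it set Control 2 and Control 3 apart from all the others. Values without Control 1 are given for the tested members and the list counts, and for other named genes where they change the call.

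One of the 9 genes passed the test. Lcn2 was lower in 3A, and none was higher. This is 1 of 8 tested genes (12.5%), against 14.9% of all 13704 tested genes called in either direction at an adjusted p under 0.05 (quasi-likelihood test of edgeR, p-values adjusted by Benjamini-Hochberg, called the adjusted p below), 7.52% higher and 7.39% lower, so the share of called genes was near the background. The median log2 fold change, 3A over Control, was -0.10 over the 8 genes and -0.02 over all tested genes. Of the 8, 2 had 3A libraries that did not overlap the Control libraries, Lcn2 and Ptx3, against 36.1% of all tested genes. Ptx3 had enough reads to be tested only through the 3A libraries, where it is high, so its separation is no separate result. At an unadjusted p under 0.05, Lcn2 was lower and Ptx3 higher, and DESeq2 and limma-voom likewise called 0 genes higher and 1 lower. Without Control 1, 2 genes were called higher (Cfb and Ptx3) and 1 lower (Lcn2), where 52.0% of 14300 tested genes were called. In that fit Cfb and Ptx3 had enough reads to be tested only through the 3A libraries. In RNA from whole cultures, fewer cells of a kind and less RNA per cell cannot be told apart.

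**Figure D1:**
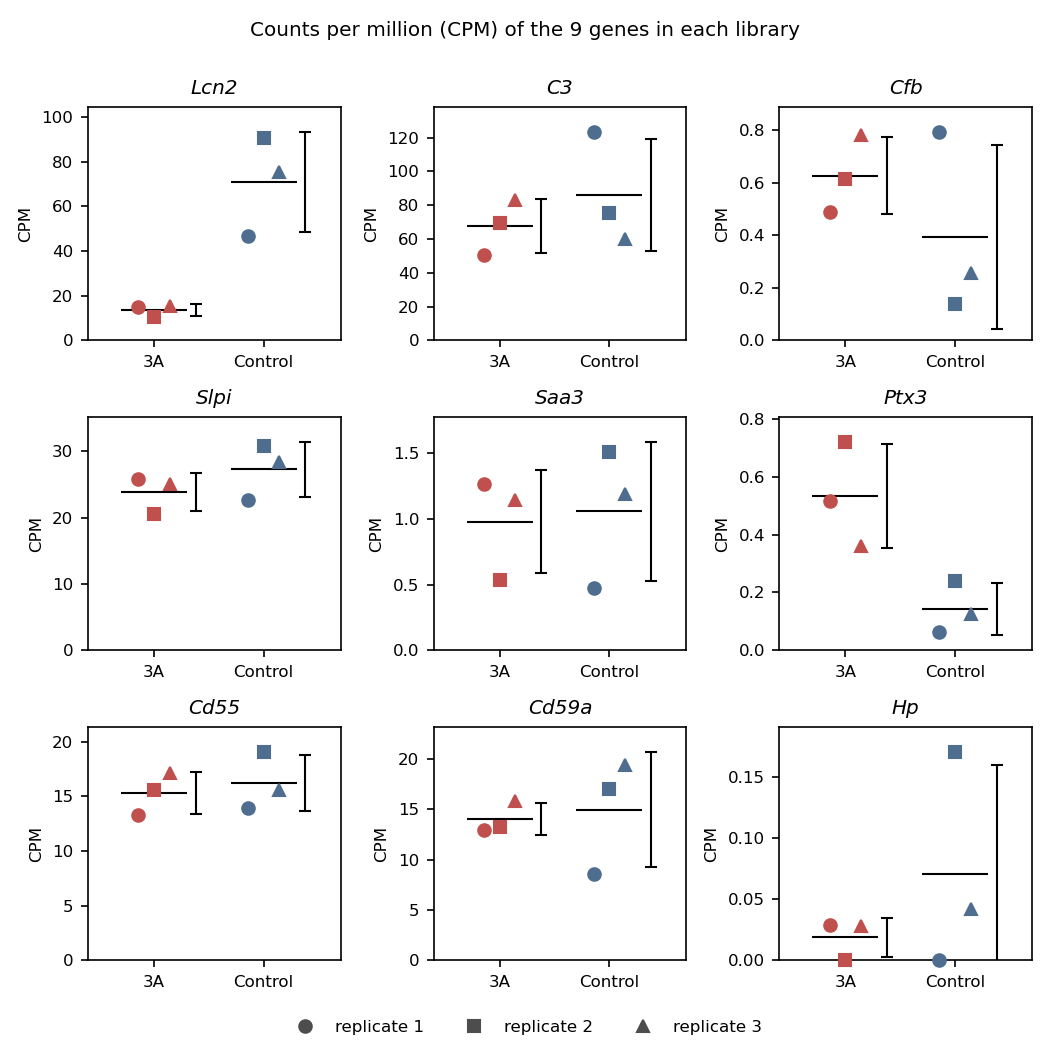
TMM-scaled counts-per-million values (CPM; vertical axis, from 0, its own range in each panel) of the 9 genes in the 3A libraries (red) and the Control libraries (blue). Symbols give the replicate number, horizontal lines the mean and bars 1 SD (cut at 0 for Hp in Control). The 3 Lcn2 values of 3A lie between 10.7 and 15.3 CPM, all under the lowest Control value of 46.5 CPM, while Slpi, Saa3, Cd55 and Cd59a overlap.

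Lipocalin-2 RNA was 5.22-fold lower in 3A than in Control. Lcn2 (ENSMUSG00000026822 on GRCm38 chromosome 2 from 32384633 to 32388252, minus strand) had 14.8, 10.7 and 15.3 CPM in 3A 1, 3A 2 and 3A 3, against 46.5, 90.7 and 75.2 CPM in Control 1, Control 2 and Control 3. All 3A libraries lay below all Control libraries, and Control 1 was the lowest of its group. The means were 13.6 ± 2.54 CPM in 3A and 70.8 ± 22.4 CPM in Control (SD, n = 3 each), a log2 fold change of -2.38 (SE 0.29, 95% interval -3.05 to -1.71, adjusted p = 0.00282 in edgeR). The raw counts behind these values were 516, 400 and 549 in 3A, against 1468, 2655 and 1772 in Control, so counting error was small beside the spread between libraries. Leaving out 1 library at a time gave log2 fold changes from -2.60 to -2.17, with edgeR adjusted p up to 0.0210, and the value of -2.60 was the one without Control 1. With the mitochondrial share in the model it was -1.85 (adjusted p = 0.00127 in edgeR). Slc22a17, which encodes a cell-surface receptor for lipocalin-2, had 1, 6 and 8 counts in 3A, against 2, 3 and 7 counts in Control, and was not tested.

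The genes whose log2 CPM over the 6 libraries was most like that of Lcn2 were H2-T10 (Pearson r 0.997), an MHC class Ib gene of a family with near-identical copies, Paox (0.997), which oxidizes acetylated polyamines, Mettl7a1 (0.996), Fas (0.996), the death receptor, and Pld3 (0.995), a lysosomal nuclease. They were picked among 9658 genes with a mean of at least 5 CPM, of which 292 had an r above 0.95. The difference between the 2 groups of 3 libraries enters this measure, so the order is a description. Fas had 19.1, 18.6 and 20.3 CPM in 3A, against 29.0, 35.7 and 34.6 CPM in Control, and like Lcn2 it was lowest of its group in Control 1. Among the 9 genes themselves, r with Lcn2 ran from -0.77 for Ptx3 and -0.72 for Cfb to 0.71 for Slpi. The highest r between any pair was 0.89, for Slpi with Saa3, and the lowest was -0.83, for Cfb with Slpi.

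**Figure D2:**
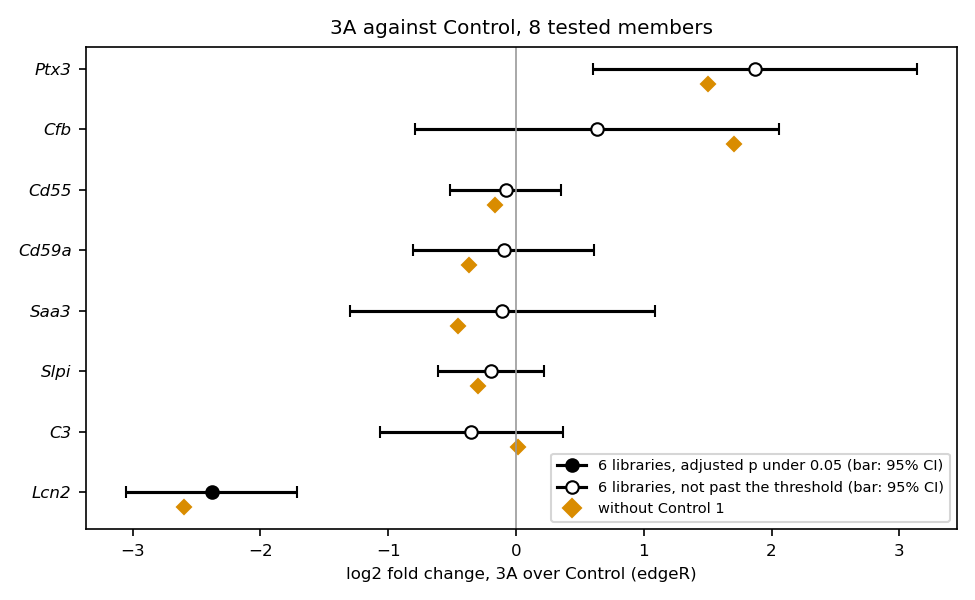
Log2 fold change, 3A over Control (horizontal axis, edgeR), of the 8 tested genes, with circles for the fit of all 6 libraries, bars for its 95% interval and diamonds for the fit without Control 1. Lcn2, at -2.38, is the gene past the threshold with all 6 libraries, and the diamonds of Cfb (1.70) and C3 (0.01) lie farther from their circles than those of Cd55 and Slpi.

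The RNAs of complement C3 and factor B did not pass the test between 3A and Control with all 6 libraries. C3 (ENSMUSG00000024164 on GRCm38 chromosome 17 from 57203970 to 57228136, minus strand) had 50.7, 69.3 and 83.1 CPM in 3A, against 123, 75.2 and 59.9 CPM in Control. The groups overlapped, and Control 1 was the highest of the 6 libraries. The means were 67.7 ± 16.2 CPM in 3A and 86.2 ± 33.1 CPM in Control (SD, n = 3 each), with a log2 fold change of -0.35 (SE 0.30, 95% interval -1.06 to 0.37, adjusted p = 0.436 in edgeR). Without Control 1 the log2 fold change was 0.01 (adjusted p = 0.966 in edgeR), and with mitochondrial mRNA share added to the model it was -0.85 (adjusted p = 0.0293 in edgeR). The part of the mitochondrial share in this result was not tested further.

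Cfb (ENSMUSG00000090231 on GRCm38 chromosome 17 from 34856374 to 34862518, minus strand) had 17, 23 and 28 counts in 3A, against 25, 4 and 6 counts in Control. These are 0.487, 0.613 and 0.780 CPM in 3A, against 0.793, 0.137 and 0.255 CPM in Control. Control 1 again was the highest library and the other Control libraries were the lowest. The log2 fold change was 0.63 (SE 0.61, 95% interval -0.79 to 2.06, adjusted p = 0.475 in edgeR), and 1.70 without Control 1 (adjusted p = 0.0221 in edgeR). The result for Cfb therefore rests on Control 1. The annotation has a read-through gene, Gm20547, across Cfb, with 0 counts in all 6 libraries.

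The other complement components were either lowly expressed or did not pass the test. Of 21 listed, 6 had 0 counts in every library and 7 were tested, of which 0 were called in either direction, against 14.9% of all tested genes, with a median log2 fold change of -0.60. At an unadjusted p under 0.05, 2 were lower, and DESeq2 and limma-voom called 0. Those 2, named after their values were seen, were C1s1 and C1ra, the proteases of the C1 complex. C1s1 averaged 3.74 ± 0.722 CPM in 3A and 5.69 ± 0.200 CPM in Control (SD, n = 3 each), a log2 fold change of -0.60 (adjusted p = 0.0974 in edgeR). C1ra averaged 4.21 ± 1.03 CPM in 3A and 6.88 ± 1.65 CPM in Control (SD, n = 3 each), a log2 fold change of -0.71 (adjusted p = 0.120 in edgeR). Cfd, the protease that cleaves factor B, had 2.24, 1.23 and 1.36 CPM in 3A, against 1.05, 3.93 and 4.25 CPM in Control (log2 fold change -0.93, adjusted p = 0.251 in edgeR). Hc, which encodes complement C5, had 0 counts in all 6 libraries. Without Control 1, 3 components were called, all lower in 3A: Cfd (log2 fold change -1.33), Cfp, which encodes properdin (-1.66), and C1ra (-0.88), with edgeR adjusted p of 0.00869, 0.0321 and 0.0143, where 52.0% of all tested genes were called.

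The membrane regulators Cd55 and Cd59a had overlapping values in the 3A and Control libraries. Cd55 (ENSMUSG00000026399 on GRCm38 chromosome 1 from 130439027 to 130462744, minus strand) had 13.3, 15.6 and 17.2 CPM in 3A, against 14.0, 19.1 and 15.6 CPM in Control. The groups overlapped, with means of 15.3 ± 1.94 CPM in 3A and 16.2 ± 2.60 CPM in Control (SD, n = 3 each). The log2 fold change was -0.08 (SE 0.18, 95% interval -0.51 to 0.35, adjusted p = 0.775 in edgeR), so a change beyond 0.51 in either direction lay outside the interval. Without Control 1 it was -0.17 (adjusted p = 0.432 in edgeR). An antisense gene, Gm16083, overlaps Cd55, and since the strand setting of the counting is not given, reads of the pair cannot be told apart.

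Cd59a (ENSMUSG00000032679 on GRCm38 chromosome 2 from 104095801 to 104115354, plus strand) had 13.0, 13.2 and 15.8 CPM in 3A, against 8.53, 17.0 and 19.4 CPM in Control. All 3 values of 3A lay between the lowest Control library, Control 1, and the other Control libraries. The means were 14.0 ± 1.58 CPM in 3A and 15.0 ± 5.70 CPM in Control (SD, n = 3 each), with a log2 fold change of -0.09 (SE 0.30, 95% interval -0.80 to 0.61, adjusted p = 0.843 in edgeR). Without Control 1 it was -0.37 (adjusted p = 0.0830 in edgeR), and without Control 3 it was 0.14. The order of the Control libraries in Cd59a was that of their mitochondrial mRNA share, the part of which was not tested beyond the fit with that share in the model (log2 fold change 0.63, adjusted p = 0.0545 in edgeR). The near copies Cd55b and Cd59b had 0 counts in all libraries and 2 counts in 3A against 1 count in Control.

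Among the other complement regulators, Susd4, a membrane protein with sushi domains that restrains the C3 convertase, was higher in 3A. Its values were 46.9, 45.8 and 41.5 CPM in 3A, against 15.7, 11.2 and 11.2 CPM in Control. The groups did not overlap, with means of 44.7 ± 2.86 CPM in 3A and 12.7 ± 2.57 CPM in Control (SD, n = 3 each) and a log2 fold change of 1.81 (SE 0.19, adjusted p = 0.00149 in edgeR). Leaving out any 1 library gave log2 fold changes from 1.73 to 2.01, with edgeR adjusted p up to 0.0138. Susd4 was the 1 gene called among 4 tested of 13 listed regulators, against 14.9% of all tested genes called, and the median log2 fold change was -0.20. Cr1l, the rodent membrane regulator of C3 also known as Crry, averaged 72.8 ± 8.52 CPM in 3A and 79.9 ± 3.43 CPM in Control (SD, n = 3 each; log2 fold change -0.14, adjusted p = 0.529 in edgeR). Clu, clusterin, averaged 19.0 ± 2.59 CPM in 3A and 22.7 ± 4.66 CPM in Control (log2 fold change -0.26, adjusted p = 0.387 in edgeR). Cd46 had at most 1.27 CPM in any library and a log2 fold change of -1.13 (adjusted p = 0.154 in edgeR), which without Control 1 was -1.51 (adjusted p = 0.00763 in edgeR), making 2 regulators called where 52.0% of all tested genes were. Serping1, which encodes the soluble C1 inhibitor, had 0 counts summed over 3A, against 1 count summed over Control.

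Of 11 listed complement receptors 5 were tested, 1 was called higher and 1 lower, against 14.9% of all tested genes called, with a median log2 fold change of 0.12. C5ar2, a receptor for C5a that does not signal through G proteins, had 25, 31 and 26 counts in 3A, against 3, 0 and 0 counts in Control. In CPM this is a ratio of 21.3 (95% counting interval 7.03 to 105, counting error only; adjusted p = 0.0123 in edgeR). C5ar2 had enough reads to be tested only through 3A, where it is high. With no low-count filter its adjusted p was 0.00535 in edgeR. Its call was lost without 3A 2 or without 3A 3 (adjusted p = 0.0630 and 0.0639 in edgeR), with 82 counts summed over 3A and 3 counts, all in Control 1, summed over Control in the full data. Without Control 1 its fitted log2 fold change was 7.62, which depends on the prior count since both remaining Control libraries had 0 counts, and with the mitochondrial share in the model it was 3.26. Calr, which encodes calreticulin, listed here as a receptor for C1q and known mainly as a chaperone of the endoplasmic reticulum, had 773, 795 and 681 CPM in 3A, against 960, 1767 and 1799 CPM in Control. Its log2 fold change of -1.01 (adjusted p = 0.0434 in edgeR) passed the threshold without Control 1 and missed it without any other single library (edgeR adjusted p from 0.0973 to 0.174). Calr was higher in the Control libraries with more mitochondrial mRNA, and with that share in the model its log2 fold change was -0.43 (adjusted p = 0.0601 in edgeR). C3ar1 and C5ar1, the receptors for C3a and C5a, were too low to test, with 29 and 23 counts summed over 3A, against 13 and 12 counts summed over Control. Without Control 1, 4 receptors were called, where 52.0% of all tested genes were, adding Cd93 (log2 fold change 1.68) and C1qbp (-0.79), both named after their values were seen, and without each other library 0 or 1 were called.

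Of the 3 acute-phase members, Saa3 overlapped between the groups, Ptx3 was separated between the groups without passing the threshold, and Hp was close to absent. Saa3 (ENSMUSG00000040026 on GRCm38 chromosome 7 from 46711998 to 46715700, minus strand), a serum amyloid A made outside the liver, had 1.26, 0.533 and 1.14 CPM in 3A, against 0.476, 1.50 and 1.19 CPM in Control. These are 44, 20 and 41 counts in 3A, against 15, 44 and 28 counts in Control. The groups overlapped, with 1 low library in each. The means were 0.978 ± 0.390 CPM in 3A and 1.06 ± 0.527 CPM in Control (SD, n = 3 each), a log2 fold change of -0.11 (SE 0.51, 95% interval -1.30 to 1.09, adjusted p = 0.898 in edgeR). Its sign turned without 3A 2 (0.20) and without Control 2 (0.24), and without Control 1 the log2 fold change was -0.46 (adjusted p = 0.377 in edgeR). The liver forms Saa1 and Saa2 had 0 counts in 3A, against 0 counts and 1 count summed over Control.

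Ptx3 (ENSMUSG00000027832 on GRCm38 chromosome 3 from 66219910 to 66225805, plus strand), a soluble pattern-recognition protein that also binds complement factors, had 18, 27 and 13 counts in 3A, against 2, 7 and 3 counts in Control. In CPM these are 0.516, 0.719 and 0.362 in 3A, against 0.0634, 0.239 and 0.127 in Control, so the lowest 3A library lay above the highest Control library. The log2 fold change was 1.87 (SE 0.54, 95% interval 0.60 to 3.14). It missed the threshold over all tested genes (edgeR unadjusted p = 0.00993, adjusted p = 0.0592). Ptx3 had enough reads to be tested only through 3A, and with no low-count filter its adjusted p was 0.0816 in edgeR. Summed over libraries and scaled by library size, the ratio was 3.76 (95% counting interval 2.00 to 7.70, counting error only). Without Control 1 it passed, with a log2 fold change of 1.50 (adjusted p = 0.0471 in edgeR). Without any other single library it did not (adjusted p from 0.0772 to 0.229 in edgeR), and the value was then highest without Control 2, at 2.48. With the mitochondrial share in the model it was 2.67 (adjusted p = 0.0508 in edgeR). Ptx3 lies inside Veph1, which is on the opposite strand.

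Hp (ENSMUSG00000031722 on GRCm38 chromosome 8 from 109575128 to 109579172, minus strand), the haemoglobin-binding protein of plasma, had 1, 0 and 1 counts in 3A, against 0, 5 and 1 counts in Control. Its level could not be compared at this depth: the ratio of its summed counts, each scaled by the summed library sizes, was 0.260 with a 95% counting interval from 0.0256 to 1.45. The hepatocyte markers were near 0 as well, with summed levels from 0.0799 to 0.430 CPM in 3A and from 0.0951 to 0.170 CPM in Control, 3 of 7 at 0 in every library (Ttr, Fgb and Tat).

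Among 31 other acute-phase genes, most of them products of the liver, 12 had 0 counts in every library and 5 could be tested. Of these 5, 1 was called higher and 3 lower in 3A, against 7.52% higher and 7.39% lower among all tested genes, with a median log2 fold change of -1.60. Orm1, which encodes the plasma protein orosomucoid, had 5.42, 5.86 and 7.21 CPM in 3A, against 11.3, 21.4 and 23.4 CPM in Control (log2 fold change -1.60, SE 0.30, adjusted p = 0.0145 in edgeR). The call of Orm1 was lost without 3A 1, 3A 2, 3A 3 or Control 2 (edgeR adjusted p from 0.0558 to 0.0769), and with the mitochondrial share in the model its log2 fold change was -0.95 (adjusted p = 0.0158 in edgeR). Its near copy Orm2 had 0 counts in 3A, against 6, 11 and 8 counts in Control. With 3A set to a floor of 3 counts over the group, Orm2 was 10.7-fold lower in 3A. The ratio of its summed counts, scaled by library size, was 0, with a 95% counting interval up to 0.124 (counting error only). Reads could be split between the copies in unknown ways.

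Serpina3g and Serpina3i, members of the multigene family of antichymotrypsin-like protease inhibitors, were lower in 3A as well. Serpina3g had 0.201, 0.160 and 0.334 CPM in 3A, against 2.79, 2.94 and 2.21 CPM in Control (log2 fold change -3.50, SE 0.36, adjusted p = 0.00157 in edgeR). It had enough reads to be tested only through Control, and with no low-count filter its adjusted p was 0.000162 in edgeR. Serpina3i had 1.20, 2.21 and 2.37 CPM in 3A, against 12.3, 7.96 and 7.39 CPM in Control (log2 fold change -2.25, SE 0.34, adjusted p = 0.00635 in edgeR). Both calls held with any 1 library left out. With a replicate block in the model that of Serpina3i was lost (adjusted p = 0.0832 in edgeR). Since the family has many similar copies, the separate values of Serpina3g and Serpina3i are uncertain. Cp, ceruloplasmin, the copper-carrying ferroxidase, went the other way. It had 12.1, 11.9 and 20.8 CPM in 3A, against 5.83, 4.75 and 4.80 CPM in Control (log2 fold change 1.54, SE 0.27, adjusted p = 0.0110 in edgeR, and 0.0539 without Control 2). Without Control 1, 7 acute-phase genes were tested and all 7 were called, 1 higher (Cp) and 6 lower, against 52.0% of all tested genes called. Orm2 (log2 fold change -6.54, adjusted p = 0.00421 in edgeR) and Orm3 (-2.25, adjusted p = 0.0217 in edgeR) were tested in this fit and not with all 6 libraries. They had enough reads to be tested only through Control 2 and Control 3, where they are high. Their direction was therefore set by the read filter and is no separate result. Without Control 2, 2 were called.

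**Figure D3:**
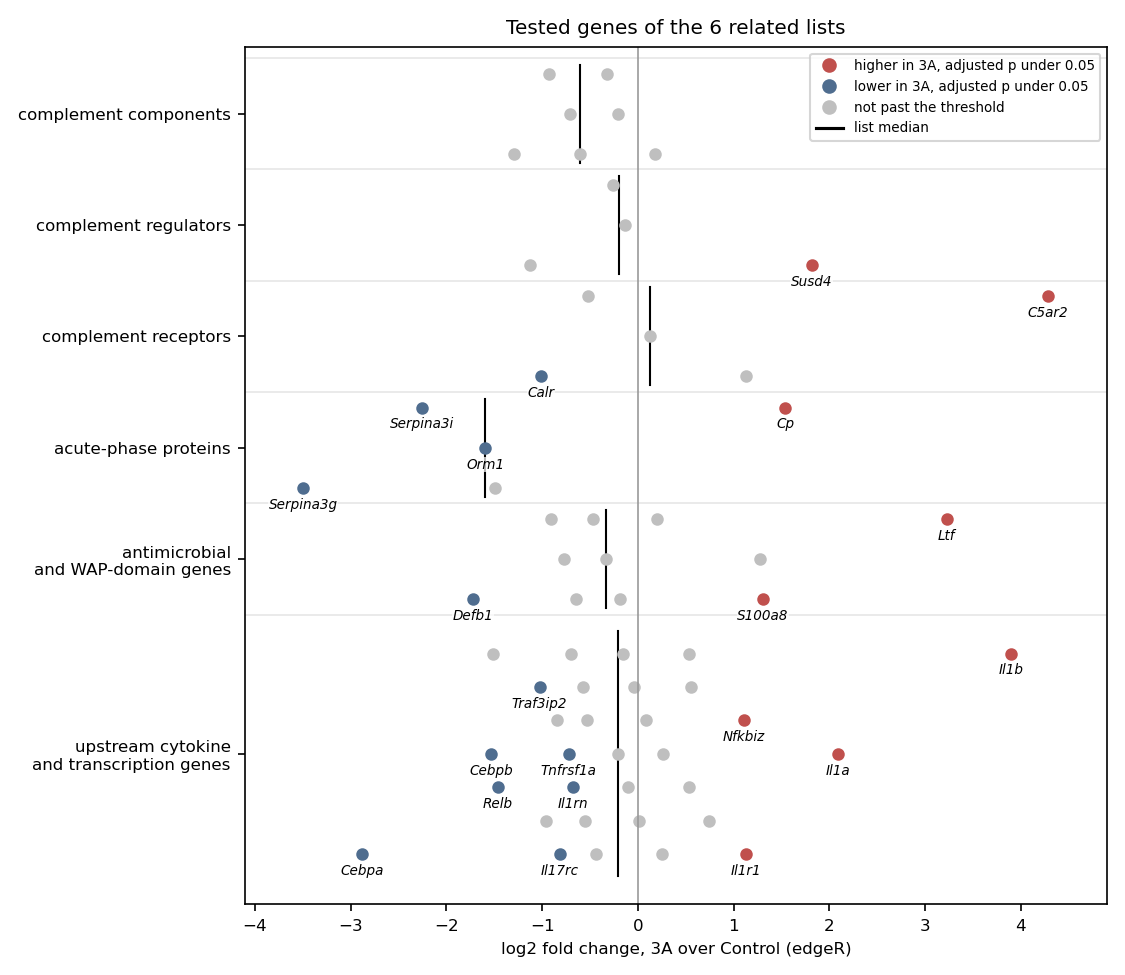
Log2 fold change, 3A over Control (horizontal axis, edgeR), of the tested genes in 6 related lists that leave out the 9 genes, 1 point per gene, with vertical bars at each list's median. The height of a point within its list carries no value. Called genes are named, and the acute-phase list has the lowest median, -1.60, over 5 tested genes.

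The antiprotease Slpi, an epithelial inhibitor of neutrophil elastase with antimicrobial activity, did not pass the test. Slpi (ENSMUSG00000017002 on GRCm38 chromosome 2 from 164354070 to 164389095, minus strand) had 25.8, 20.6 and 25.1 CPM in 3A, against 22.7, 30.7 and 28.4 CPM in Control. The groups overlapped, with means of 23.8 ± 2.82 CPM in 3A and 27.3 ± 4.12 CPM in Control (SD, n = 3 each), a log2 fold change of -0.19 (SE 0.18, 95% interval -0.61 to 0.22, adjusted p = 0.457 in edgeR). Without Control 1 it was -0.30 (adjusted p = 0.125 in edgeR). Wfdc2, an epithelial protein with the same WAP domain, averaged 359 ± 86.9 CPM in 3A and 408 ± 151 CPM in Control (SD, n = 3 each; log2 fold change -0.19, adjusted p = 0.699 in edgeR).

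Of 29 other antimicrobial and WAP-domain genes 11 were tested, of which 2 were called higher and 1 lower, against 14.9% of all tested genes called, with a median log2 fold change of -0.33. Ltf, lactoferrin, which like lipocalin-2 keeps iron from bacteria, had 21.6, 21.4 and 26.5 CPM in 3A, against 2.82, 2.77 and 1.78 CPM in Control. It was higher in 3A in every library, with a log2 fold change of 3.23 (SE 0.24, adjusted p = 0.000493 in edgeR) and values from 3.05 to 3.34 with any 1 library left out. S100a8, a subunit of the metal-binding protein calprotectin, had 15.2, 12.0 and 18.7 CPM in 3A, against 4.06, 6.46 and 8.07 CPM in Control (log2 fold change 1.31, adjusted p = 0.0274 in edgeR). Its partner S100a9 averaged 1.41 ± 0.654 CPM in 3A and 1.96 ± 0.629 CPM in Control (SD, n = 3 each; log2 fold change -0.47, adjusted p = 0.453 in edgeR). Defb1, a beta-defensin, was lower, with 0.831, 1.47 and 1.20 CPM in 3A, against 2.44, 4.78 and 4.37 CPM in Control (log2 fold change -1.72, adjusted p = 0.0210 in edgeR). The call of S100a8 was lost without 3A 1, 3A 2, 3A 3 or Control 2 (edgeR adjusted p from 0.0587 to 0.112), and that of Defb1 was kept without Control 1 and lost without each other library (edgeR adjusted p from 0.0640 to 0.0965). With the mitochondrial share in the model the value of Defb1 was -1.18 (adjusted p = 0.0572 in edgeR). Without Control 1, 6 of these 11 genes were called, against 52.0% of all tested genes, and without each other library 1 or 2.

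Ltf and S100a8 are also neutrophil markers, so the whole neutrophil list is given. The 12 neutrophil markers summed to between 34.4 and 47.4 CPM in 3A and between 8.53 and 12.9 CPM in Control, and most of this was Ltf and S100a8. The defining genes Mpo, Elane, Ngp, Camp, Csf3r and Retnlg were at 0 in all 6 libraries. Ly6g had 8 counts summed over 3A and 5 over Control, and Mmp8 had 2 and 0. Cxcr2 had 8 counts summed over 3A and 25 over Control, with every 3A library below every Control library. S100a9, given above, overlapped between the groups. The 10 macrophage markers summed to between 19.3 and 24.8 CPM in 3A and between 19.1 and 28.7 CPM in Control, mostly from Cd68 and Cd14, with 7 under 1 CPM in every library, among them Ptprc, and with Adgre1 and Tyrobp at 0. Fibroblast markers summed to between 3.01 and 4.01 CPM in 3A and between 2.55 and 3.61 CPM in Control. Endothelial markers summed to between 0.585 and 1.03 CPM in 3A and between 0.547 and 0.637 CPM in Control, and melanocyte markers to between 1.63 and 2.13 CPM in 3A and between 3.28 and 3.95 CPM in Control. Single markers passed the test at low levels: the macrophage marker Mrc1 had 13, 15 and 24 counts in 3A, against 2, 1 and 0 counts in Control (adjusted p = 0.0142 in edgeR), and the fibroblast marker Fbn1 had 15, 22 and 12 counts in 3A, against 3, 2 and 0 counts in Control (adjusted p = 0.0299 in edgeR). Both had enough reads to be tested only through 3A. The melanocyte marker Pmel and the keratinocyte markers Trp63 and Perp were lower in 3A, with log2 fold changes of -1.05, -0.61 and -0.78 (adjusted p = 0.0436, 0.0491 and 0.0247 in edgeR).

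Cytokine, receptor and transcription factor genes known to act upstream of acute-phase genes were looked at in the same fit. Of 38 listed, 31 were tested, of which 4 were called higher and 7 lower (35.5%, against 14.9% of all tested genes), with a median log2 fold change of -0.20, and 17 had groups that did not overlap, against 36.1% of all tested genes. Since this list was chosen with earlier results of these data known, the share is a description. Without Control 1, 22 were called, where 52.0% of all tested genes were, and without each other library between 3 and 11.

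The largest fall among them was that of Cebpa, a C/EBP transcription factor of differentiating epithelium. Cebpa had 1.86, 1.57 and 1.14 CPM in 3A, against 10.4, 11.4 and 11.8 CPM in Control. The groups did not overlap, with a log2 fold change of -2.88 (SE 0.24, adjusted p = 0.000747 in edgeR). Cebpb, the C/EBP factor best known from the acute-phase response, had 91.2, 55.2 and 40.3 CPM in 3A, against 101, 222 and 217 CPM in Control. Here 3A 1 lay close to Control 1, and the log2 fold change of -1.53 (adjusted p = 0.0434 in edgeR) missed the threshold without 3A 2, 3A 3, Control 2 or Control 3 (edgeR adjusted p from 0.118 to 0.167). With the mitochondrial share in the model it was -0.76 (adjusted p = 0.130 in edgeR). Cebpd averaged 3.82 ± 1.60 CPM in 3A and 6.87 ± 1.28 CPM in Control (SD, n = 3 each; log2 fold change -0.85, adjusted p = 0.117 in edgeR), and passed the threshold without Control 1 (-0.98, adjusted p = 0.0301 in edgeR).

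The interleukin-1 genes Il1a and Il1b and the receptor gene Il1r1 were higher in 3A. Il1a, which encodes the interleukin-1 alpha that keratinocytes store, had 2131, 1616 and 2105 CPM in 3A, against 384, 452 and 542 CPM in Control (log2 fold change 2.09, SE 0.21, adjusted p = 0.00136 in edgeR). Il1b averaged 1.79 ± 0.226 CPM in 3A and 0.111 ± 0.0970 CPM in Control (SD, n = 3 each; log2 fold change 3.90, adjusted p = 0.00411 in edgeR). It had enough reads to be tested only through 3A, and with no low-count filter its adjusted p was 0.000514 in edgeR. Il1r1, the signalling receptor of both, had 25.2, 36.4 and 38.7 CPM in 3A, against 16.9, 14.9 and 14.1 CPM in Control (log2 fold change 1.13, adjusted p = 0.0123 in edgeR). In these 3 genes every 3A library lay above every Control library. The calls of Il1a and Il1b held with any 1 library left out, but the log2 fold change of Il1b was 4.90 without Control 1 and 3.09 with the mitochondrial share in the model. With a replicate block in the model the calls of Il1b and Il1r1 were lost (adjusted p = 0.0584 and 0.117 in edgeR). The call of Il1r1 held without 3A 1 or Control 1 and was lost without 3A 2, 3A 3, Control 2 or Control 3 (edgeR adjusted p from 0.0523 to 0.0677). Il6 had 1, 0 and 1 counts in 3A, against 2, 4 and 2 counts in Control.

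The other called genes of this list went in both directions. Relb, a subunit of the non-canonical NF-kappaB pathway, had 19.6, 13.0 and 12.7 CPM in 3A, against 34.0, 49.1 and 41.7 CPM in Control (log2 fold change -1.46, SE 0.23, adjusted p = 0.00808 in edgeR). Nfkbiz, which encodes IkappaB-zeta, a nuclear cofactor needed in mouse cells for interleukin-1-induced Lcn2, had 129, 156 and 151 CPM in 3A, against 86.1, 53.0 and 63.6 CPM in Control (log2 fold change 1.11, SE 0.21, adjusted p = 0.0151 in edgeR). Traf3ip2, the adaptor of interleukin-17 receptors, averaged 26.2 ± 4.59 CPM in 3A and 53.4 ± 6.92 CPM in Control (SD, n = 3 each; log2 fold change -1.03, adjusted p = 0.0134 in edgeR). The other 3 called genes, named after their values were seen, were lower in 3A: the receptor chain Il17rc (log2 fold change -0.82), the tumour necrosis factor receptor Tnfrsf1a (-0.72) and the interleukin-1 antagonist Il1rn (-0.67). With 1 library left out, each of these 6 calls was lost without 3A 2 or without 3A 3. The call of Relb was lost in no other of these fits. That of Traf3ip2 was also lost without Control 2, and those of Nfkbiz and Il17rc also without Control 2 or Control 3. Those of Tnfrsf1a and Il1rn were lost without any library but Control 1. The edgeR adjusted p in these cases ran from 0.0526 for Relb to 0.196 for Il1rn. Tnfrsf1a was also lost with the mitochondrial share in the model (-0.43, adjusted p = 0.0694 in edgeR). With a replicate block in the model all 6 calls were lost (edgeR adjusted p from 0.0876 for Relb to 0.219 for Il1rn). Il1rn was also lost with scaling by library size alone and with no low-count filter (adjusted p = 0.0711 and 0.0899 in edgeR). Stat3 averaged 133 ± 18.5 CPM in 3A and 112 ± 47.0 CPM in Control (log2 fold change 0.25, adjusted p = 0.568 in edgeR, and 0.66 with adjusted p = 0.0120 without Control 1). Its feedback inhibitor Socs3 averaged 21.0 ± 4.54 CPM in 3A and 22.5 ± 4.40 CPM in Control (log2 fold change -0.10, adjusted p = 0.760 in edgeR).

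**Figure D4:**
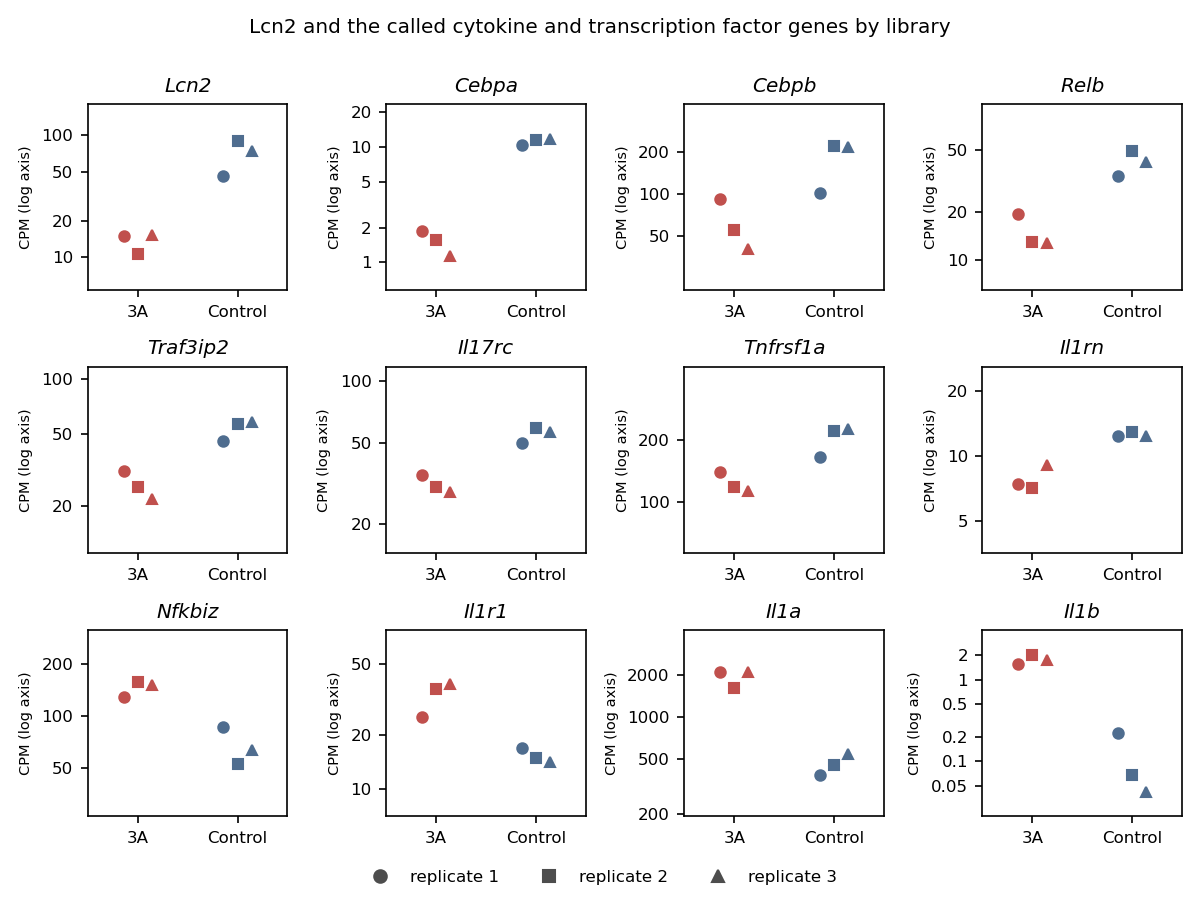
TMM-scaled counts-per-million values (vertical log axis, its own range in each panel) of Lcn2 and the 11 called cytokine and transcription factor genes in the 3A libraries (red) and the Control libraries (blue), with symbols for the replicate number. Lcn2 and the 7 genes from Cebpa to Il1rn are lower in 3A, and Nfkbiz, Il1r1, Il1a and Il1b are higher, with Il1a at 1616 CPM or more in 3A and at 542 CPM or less in Control.

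Levels of different genes were compared per kilobase of exon, taken as the union of all annotated exons of a gene. A transcript can be shorter than this union, and by different amounts in different genes. The order of the genes therefore depends on the annotation. On this scale Lcn2 had rank 4 of the 9 genes in 3A, at 5.18 CPM per kb, and rank 1 in Control, at 27.0 CPM per kb. In 3A the order was Slpi (20.2 CPM per kb), C3 (13.2), Cd59a (7.73), Lcn2 (5.18) and Cd55 (3.16), and the libraries of neighbouring genes in this order did not overlap. Saa3 (0.375), Cfb (0.222) and Ptx3 (0.199) followed with overlapping libraries, and Hp (0.0117) was last. In Control the order was Lcn2 (27.0 CPM per kb), Slpi (23.1), C3 (16.8), Cd59a (8.26) and Cd55 (3.34). The libraries of Lcn2, from 17.7 to 34.6 CPM per kb, those of Slpi, from 19.2 to 26.0, and those of C3, from 11.7 to 24.0, overlapped, so these 3 could not be ordered. Cd59a lay below C3 and above Cd55 in every library, and Saa3 (0.405), Cfb (0.140), Ptx3 (0.0534) and Hp (0.0443) followed, each overlapping the next.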

How the data were processed

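RNA was sequenced from 3 libraries of 3A and 3 of Control. The authors deposited 1 table of read counts for mouse Ensembl genes, in whole numbers and not normalized. The builds GRCh38, hg38 and mm10 and the tools limma, edgeR, featureCounts and Trim Galore stand in the submitters' processing notes. The sources used here do not give their versions or roles, nor the aligner, annotation or strand setting. Symbols, positions and exon lengths were taken from GENCODE M21 (GRCm38), which held 49056 of 49315 IDs. No pair of libraries agreed within sampling noise (lowest chi-square per degree of freedom 14.5).

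The test was that of edgeR 4.0.16 (R 4.3.3), with filterByExpr, TMM, estimateDisp, glmQLFit and glmQLFTest on group alone, over 13704 genes, with Benjamini-Hochberg adjustment and a threshold of 0.05. CPM were scaled by TMM, with a prior count of 1 where logged. Intervals are 95%, exact binomial for ratios of counts. Where 3A had 0 counts, folds used a floor of 3 counts summed over its libraries (0.0277 CPM). The script was checked on simulated counts. DESeq2 1.42.0 and limma-voom (limma 3.58.1) were alternatives, beside other scalings, filters, a replicate block, a stricter threshold and each library left out. A fit with the mitochondrial mRNA share was added after seeing the data. Members and lists were chosen with earlier results of these data known. Named genes are the 9 members, up to 6 called genes of each list by smallest p, a written set of partners, paralogs, receptors, ligands and upstream factors of members (among them Cd46, Il6, Nfkbiz, Cebpb, Cebpd, Stat3 and Socs3), and the 5 genes most like Lcn2. Outside this rule C1s1, C1ra, Cfp, Cd93, C1qbp, Wfdc2, S100a9, Il17rc, Tnfrsf1a, Il1rn, Hpx, Hamp and single markers were named after their values were seen. So were Orm2 and Orm3. Motifs were searched on both strands in RefSeq windows.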

Additional observations from a re-analysis of the deposited data

How the results depend on the processing

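Lcn2 stayed lower in 3A and past the threshold under every alternative in which it was fitted, with log2 fold changes from -2.60 to -1.85. Scaling by library size alone shifted the median of all genes to 0.05 and turned Cd59a to 0.0033. Deviations of same-numbered libraries from their group means correlated at -0.66, -0.42 and -0.37, and those of differently numbered libraries at -0.42 to 0.54. With 3 libraries per group these values are not independent of each other. They cannot decide whether the replicate numbers pair the samples, and no label says that they do. With the replicate block 288 genes were called, Lcn2 had an adjusted p of 0.0464, and the lists had 0 complement receptors, 1 acute-phase gene, 1 antimicrobial gene and 2 upstream genes called. At an adjusted p under 0.01 these were 0, 2, 1 and 4, and with at least 1 CPM in 3 libraries 1 receptor was called. The list genes that kept their call with the replicate block were Susd4, Serpina3g, Ltf, Il1a and Cebpa. When mitochondrial mRNA share was added to the model, 2 members were called lower (Lcn2 and C3) and 1 receptor was called, and the log2 fold changes were -0.19 for Cfb, 0.042 for Slpi, 0.91 for Saa3, 0.073 for Cd55 and 0.63 for Cd59a. With 1 library left out, the calls ranged from 0 to 2 members higher, 0 to 3 components, 1 to 2 regulators, 0 to 4 receptors, 2 to 7 acute-phase genes, 1 to 6 antimicrobial genes and 3 to 22 upstream genes. The log2 fold changes then ranged from -0.55 to 0.012 for C3, from -0.46 to 0.24 for Saa3, from -0.17 to 0.044 for Cd55, from 1.50 to 2.48 for Ptx3 and from -0.37 to 0.14 for Cd59a. The cause of these shifts was not tested. At this depth Hp, Cfb, Saa3 and Ptx3 rest on under 50 counts per library.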

Other observations

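Some genes for secreted iron- and haem-handling proteins are set side by side here, a choice made after their values were seen. Lcn2, which captures siderophores, was lower in 3A (log2 fold change -2.38), whereas Ltf, which binds iron itself (3.23), and Cp, which oxidizes it (1.54), were higher in 3A. Hp, which binds haemoglobin, had 2 counts summed over 3A and 6 counts summed over Control, Hpx, which binds haem, had 0 counts and 2 counts, and Hamp, which encodes hepcidin, had 0 counts and 1 count. These last could not be compared.

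The 2 genes of calprotectin differed in level between libraries in separate ways. S100a8 was higher in every 3A library than in every Control library, and S100a9 overlapped between the groups, with its lowest value in 3A 2 (0.826 CPM) and its highest in Control 3 (2.59 CPM).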
